A study of Homo sapiens with 8 samples.

Results

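Keratinocytes that expressed CARD14 with the I593T substitution were compared with keratinocytes that expressed wild-type (WT) CARD14. The comparison took in 4 of the 8 libraries of the series, I593T A and I593T B against WT A and WT B. It covered the 14178 of 28518 genes in the deposited table that had 10 or more counts in at least 2 of these 4 libraries. The I593T group was HaCaT cells, an immortalised human keratinocyte line, with both a CARD14 knockout and a plasmid for CARD14-I593T and eGFP, with a self-cleaving peptide between them so that both proteins come from 1 transcript. The WT group was the same knockout line with the plasmid for WT CARD14 and eGFP. The other groups of the series received R820W or N737H CARD14 in the same way, and all 3 substitutions are described by the submitters as hypomorphic. In all groups the cells were in 10 cm dishes and received 9 ug of plasmid, with fresh medium 2 h later, and were sorted for GFP at 24 h. The model is thus transient expression from a plasmid in a knockout line, so the CARD14 counts cannot be assigned to the plasmid or to the disrupted gene. How many knockout clones were used is not given in the sources used here.

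CARD14 is a scaffold protein with a caspase recruitment domain that is abundant in the epidermis. When activated it assembles with the adaptor BCL10 and the protease MALT1, and this complex recruits TRAF6 and the IkB kinases, which release NF-kB to turn on cytokine and antimicrobial genes. Overactive variants are known from psoriasis and pityriasis rubra pilaris, and loss-of-function variants from severe atopic dermatitis. I593T changes an isoleucine to a threonine.

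Total counts were 24629860 and 20583323 in I593T A and B, against 22209350 and 22383534 in WT A and B. The labelled cell type was checked against its markers. All 10 keratinocyte markers passed the count minimum, and their summed level was 5815 and 6367 CPM (counts scaled to the library size) in I593T A and B, against 6498 and 7335 CPM in WT. Sums for the other cell types were lower, at 8.76 to 14.1 CPM for melanocyte markers and 58.8 to 91.8 CPM for immune-cell markers over the 4 libraries. The melanocyte markers TYR, DCT and SOX10, the immune marker NKG7 and the kidney-line marker PAX2 were at 0. Libraries of letter A differed from those of letter B across the whole series: the first principal component, 46.6% of the variance, put the 4 A libraries (-27.32 in WT A, the lowest) on the other side from the 4 B libraries (25.52 in I593T B, the highest). The letter therefore entered the fits below as a block, except where a fit with no block is named, and the letters were read as the series' 2 independent experiments. In RNA from bulk cells, fewer cells of a type and less RNA per cell cannot be told apart.

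CARD14 RNA itself did not separate the groups. Its level was 498 and 1390 CPM in I593T A and B, against 1121 and 974 CPM in WT A and B. I593T A was the lowest and I593T B the highest of the 4 libraries, so the groups overlapped. The log2 fold change of I593T over WT was -0.34 ± 0.39 (fitted value ± SE, n = 2 libraries per group, as for all fold changes below), with a 95% interval of -1.25 to 0.57. The 2 I593T libraries thus differed from each other in CARD14 RNA by more than the group means did, and the part of this difference in the results below was not tested. MYC, the transcription factor of the series title, had 739 and 813 CPM in I593T against 737.4 and 740.8 CPM in WT, a log2 fold change of 0.07 ± 0.13 with an interval of -0.23 to 0.38.

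No gene passed an adjusted p of 0.05 between I593T and WT (edgeR's quasi-likelihood test with the letter as block, Benjamini-Hochberg over 14178 genes, 0 called, 0%). The smallest unadjusted p was 0.00046, for AKR1C1, and every adjusted p was 1. At an unadjusted p under 0.05 there were 270 genes higher in I593T (1.9% of the genes tested) and 216 genes lower (1.52%), together 486, where p-values spread evenly would give 709. Both I593T libraries lay above both WT libraries for 1322 genes (9.32%) and below both for 1524 (10.7%). DESeq2 with the same block called 2 genes, 0.0141%. They were CYR61, with a log2 fold change of 1.76 ± 0.35 (DESeq2 adjusted p = 0.00534), and SERPINB13, with -0.97 ± 0.20 (DESeq2 adjusted p = 0.00656). The median fold change of all genes tested was -0.02 on the log2 scale, and the median 95% interval reached 0.52 to either side of a gene's value; genes with less spread had narrower intervals. The difference between I593T and WT had the same sign in A and in B for 6658 genes, 47% of those tested.

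The genes of smallest p with both I593T libraries above both WT libraries, and a mean of at least 5 CPM, came from several families. CYR61 (also called CCN1), a secreted matrix protein that is a standard target of YAP and TEAD, stood at 109 and 259 CPM in I593T A and B, against 56.8 and 45.3 CPM in WT A and B. Both I593T libraries were high and B was the higher; the log2 fold change was 1.75 ± 0.38, and 1.16 without I593T B. NUAK1, a kinase related to AMPK, had 10.1 and 6.51 CPM in I593T against 4.15 and 3.22 CPM in WT. Here I593T A was the higher of the pair, and the log2 fold change was 1.15 ± 0.22. GADD45GIP1, a protein of the mitochondrial ribosome, had 5.02 and 17.0 CPM against 2.60 and 4.33 CPM, 1.51 ± 0.32 on the log2 scale. Its value was 1.00 without I593T B.

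In all but 1 of the other 9 higher genes, I593T B was the highest of the 4 libraries. TSPAN4, a tetraspanin of the plasma membrane, had 10.2 and 36.0 CPM in I593T A and B, against 6.01 and 5.67 CPM in WT (1.72 ± 0.44), and its log2 fold change was 1.10 without I593T B and 1.09 without WT B. LYSMD2 had 4.66 and 14.3 CPM against 2.64 and 2.69 CPM (1.63 ± 0.42, and 1.07 without WT B). LTBP3, which binds latent TGF-beta in the matrix, had 5.30 and 11.6 CPM against 3.46 and 3.89 CPM (1.10 ± 0.28). FAM83D, a protein of the mitotic spindle, had 39.8 and 65.3 CPM against 27.4 and 31.1 CPM (0.81 ± 0.18). The remaining genes differed by smaller ratios. KDM2A, a histone demethylase, had 28.0 and 34.8 CPM in I593T against 19.7 and 21.2 CPM in WT (0.61 ± 0.15). PIM1, a growth-promoting kinase, had 25.1 and 35.6 CPM against 17.5 and 19.1 CPM (0.72 ± 0.19). ITGBL1, a secreted integrin-like protein and the exception, with A and B alike in I593T, had 23.3 and 22.1 CPM against 17.0 and 12.5 CPM (0.63 ± 0.17). ITM2B, a membrane protein, and C19orf60 had log2 fold changes of 0.54 ± 0.15 and 0.68 ± 0.17, and C19orf60 was at 0.45 after a correction for GC content.

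**Figure D1:**
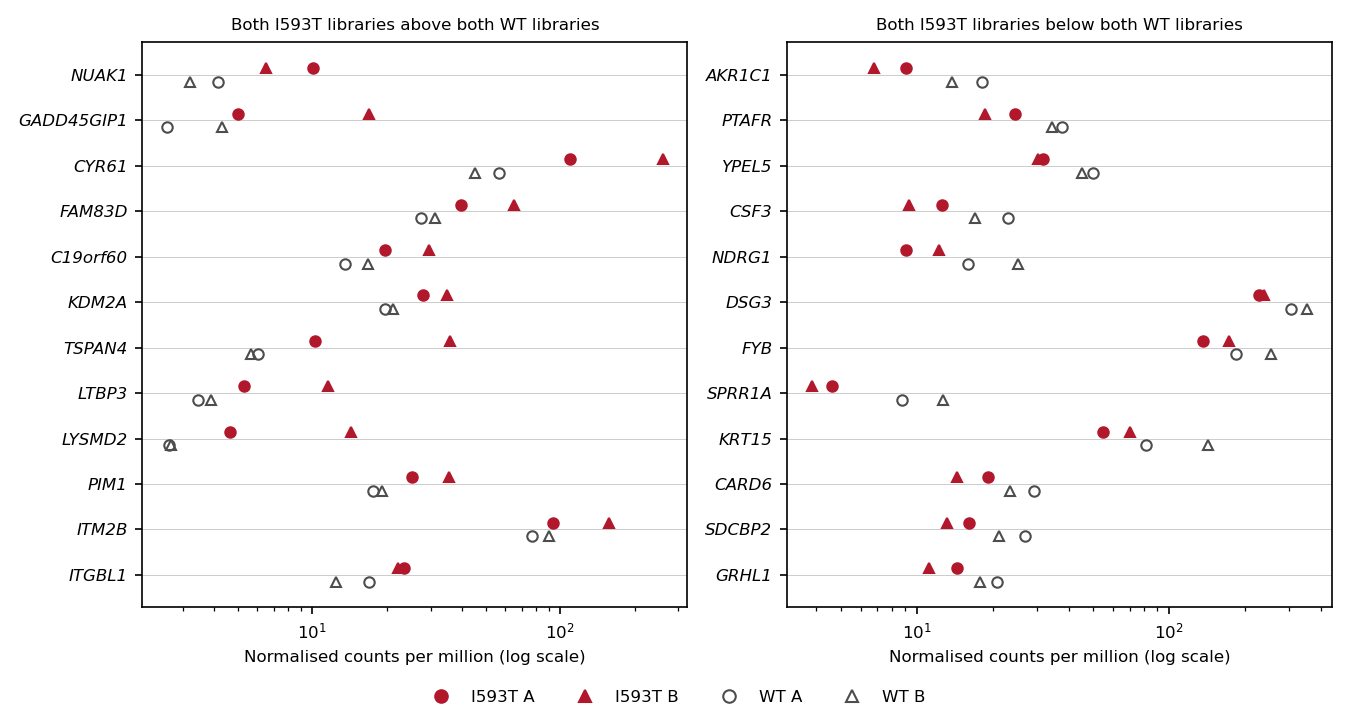
Normalised CPM (horizontal axis, log scale) of the 24 named genes, with 1 point per library: red filled symbols for I593T, open grey symbols for WT, circles for A and triangles for B. Genes were chosen for groups that do not overlap, so the gap between red and grey is part of the choice; CYR61 reads 109 and 259 CPM in I593T and SPRR1A 4.62 and 3.85 CPM, and the distance between A and B within a group differs from gene to gene.

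The lower genes held proteins of the epidermis and of its secretions. AKR1C1, an aldo-keto reductase that inactivates progesterone, had 9.04 and 6.80 CPM in I593T A and B, against 18.2 and 13.8 CPM in WT A and B. The difference was alike in A (-0.93 on the log2(CPM + 1) scale) and in B (-0.93), and the fitted log2 fold change was -1.02 ± 0.17. DSG3, the desmosomal cadherin that is the antigen of pemphigus vulgaris, had 227 and 239 CPM against 305 and 353 CPM, -0.49 ± 0.11 on the log2 scale. KRT15, a keratin of basal cells, had 54.8 and 69.8 CPM against 80.8 and 143 CPM. WT B was the highest of the 4 for KRT15, whose log2 fold change was -0.82 ± 0.19, and -0.46 without WT B. SPRR1A, a precursor of the cornified envelope, had 4.62 and 3.85 CPM against 8.79 and 12.7 CPM (-1.28 ± 0.30, and -0.83 without I593T B). GRHL1, a transcription factor of epidermal differentiation that acts on desmosomal cadherin genes, had 14.5 and 11.2 CPM against 20.9 and 17.8 CPM (-0.60 ± 0.15).

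The remaining lower genes were signalling and stress genes. CSF3, the cytokine G-CSF, had 12.6 and 9.37 CPM in I593T against 23.1 and 17.1 CPM in WT (-0.87 ± 0.18). PTAFR, the receptor for platelet-activating factor, had 24.5 and 18.6 CPM against 37.8 and 34.3 CPM (-0.75 ± 0.14). Both are known from inflamed skin. NDRG1, which is induced by hypoxia and in differentiation, had 9.12 and 12.3 CPM against 16.0 and 25.3 CPM (-0.94 ± 0.21). CARD6, another protein with a caspase recruitment domain, had 19.2 and 14.4 CPM against 29.2 and 23.5 CPM (-0.65 ± 0.15). YPEL5, FYB, an adaptor best known from T cells, and SDCBP2, a PDZ-domain protein, had log2 fold changes of -0.62 ± 0.13, -0.49 ± 0.11 and -0.71 ± 0.17. Over the 21 other fits of these 24 genes, all 252 values of the higher genes and all 252 of the lower genes kept their sign. The choice of genes largely fixes this direction, since both I593T libraries had to lie beyond both WT libraries.

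YAP and TEAD target genes, which report on cell shape and contact, were more often higher than lower. Of 27 members tested, 20 were higher in I593T and 7 lower, against 6598 higher and 7580 lower of all genes tested. An unadjusted p under 0.05 was found for 3, all higher, against 1.9% of all genes. Besides CYR61, these were ANKRD1 and FJX1. ANKRD1, an ankyrin-repeat protein of muscle and stretched cells, had 8.07 and 16.1 CPM in I593T A and B, against 4.05 and 4.47 CPM in WT (1.47 ± 0.40, and 0.94 without I593T B). FJX1, a secreted protein related to fly four-jointed, had 16.5 and 18.0 CPM against 12.7 and 12.5 CPM (0.46 ± 0.17). CTGF (also called CCN2), the close relative of CYR61 and named here after its value was seen, had 1.65 and 5.28 CPM against 1.69 and 0.577 CPM; I593T A and WT A were alike, and I593T B was the highest and WT B the lowest. The list's 2 members of highest level were THBS1, a matrix protein, with 1164 and 961 CPM against 1378 and 563 CPM (0.25 ± 0.24), and F3, tissue factor, with 1009 and 905 CPM against 1111 and 568 CPM (0.25 ± 0.21). For both, the difference was negative in A and positive in B. The list's median log2 fold change was 0.18, with -0.14 within A and 0.37 within B, and it was -0.03 without I593T B and -0.05 without WT B. Medians within a letter, here and below, are of differences on the log2(CPM + 1) scale, which shrinks those of low genes.

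The promoters of ANKRD1 and CCN2 are shown because both genes are textbook YAP and TEAD targets and only 1 of them had groups that did not overlap. Each sequence runs from 250 bases before to 50 bases after the start of the gene (RefSeq, GRCh38.p14), and capitals mark GGAATG, the core of the TEAD motif.
ANKRD1, chr10:90921038-90921337, minus strand: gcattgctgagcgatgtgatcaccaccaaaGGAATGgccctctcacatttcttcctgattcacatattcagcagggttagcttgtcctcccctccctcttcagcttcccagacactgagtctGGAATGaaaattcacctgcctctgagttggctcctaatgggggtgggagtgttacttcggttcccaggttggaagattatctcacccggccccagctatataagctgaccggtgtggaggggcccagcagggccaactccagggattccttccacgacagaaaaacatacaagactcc
CCN2, chr6:131951323-131951622, minus strand: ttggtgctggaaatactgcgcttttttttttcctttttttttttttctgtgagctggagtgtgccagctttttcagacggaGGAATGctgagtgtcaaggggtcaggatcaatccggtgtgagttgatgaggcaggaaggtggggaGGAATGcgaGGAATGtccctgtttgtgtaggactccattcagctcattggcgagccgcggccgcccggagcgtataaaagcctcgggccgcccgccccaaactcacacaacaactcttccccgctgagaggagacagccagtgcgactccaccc
ANKRD1 held 2 matches, 220 and 128 bases before the start, and CCN2 held 3, at 169, 104 and 95 bases. On both strands (GGAATG or CATTCC), 14.0% of 35116 promoters of that length held at least 1. A match describes these letters and not a bound site.

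Genes of the cornified envelope, the protein shell of the outermost keratinocytes, were more often lower. Only 21 of 43 members passed the count minimum, and 16 of these were lower in I593T and 5 higher, with a median log2 fold change of -0.37 (-0.22 within A, -0.20 within B). Without WT B the median was -0.15, with 12 lower and 9 higher. All 5 members with an unadjusted p under 0.05 were lower, against 1.52% of all genes, and all were small proline-rich proteins. SPRR2F had 1.29 and 0.542 CPM in I593T A and B, against 3.87 and 1.97 CPM in WT A and B (-1.69 ± 0.35). SPRR2E had 3.62 and 0.986 CPM against 7.29 and 2.02 CPM (-1.01 ± 0.29). For SPRR2E the letters differed more than the groups, and I593T was the lower within each letter. SPRR1B and SPRR2D, named after their values were seen, had log2 fold changes of -0.70 ± 0.27 and -0.67 ± 0.25. The SPRR2 genes are near-identical copies, so the counting could have split their reads in ways that cannot be checked. The most abundant members, the protease KLK5 and the secreted protein DMKN, had log2 fold changes of -0.26 ± 0.15 and 0.00 ± 0.15. IVL, FLG and KRT10, named after their values were seen, were at 0.53, 0.23 and 0.85, with unadjusted p-values of 0.277, 0.439 and 0.0783 in edgeR.

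The promoters of SPRR1A and SPRR2F are shown as examples of SPRR genes whose groups did not overlap (SPRR1B is another), since the cluster they lie in is known for AP-1 control. Capitals mark TGAGTCA, 1 strand of the AP-1 motif TGACTCA. The SPRR1A promoter also holds the TEAD core GGAATG, 87 bases before the start and left in lower case, and so does that of SPRR1B, 90 bases before it.
SPRR1A, chr1:152983831-152984130, plus strand: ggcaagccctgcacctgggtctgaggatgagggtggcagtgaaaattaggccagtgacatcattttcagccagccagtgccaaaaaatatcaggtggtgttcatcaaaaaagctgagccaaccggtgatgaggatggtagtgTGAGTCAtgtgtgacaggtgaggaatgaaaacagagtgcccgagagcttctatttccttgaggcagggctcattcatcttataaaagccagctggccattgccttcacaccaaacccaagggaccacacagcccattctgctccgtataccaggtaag
SPRR2F, chr1:153113467-153113766, minus strand: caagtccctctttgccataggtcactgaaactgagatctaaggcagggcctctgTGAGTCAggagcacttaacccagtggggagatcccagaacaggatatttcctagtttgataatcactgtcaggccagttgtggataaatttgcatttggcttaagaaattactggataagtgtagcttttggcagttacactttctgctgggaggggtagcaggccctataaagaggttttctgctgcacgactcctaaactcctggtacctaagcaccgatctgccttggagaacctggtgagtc
The match lay 108 bases before the start in SPRR1A and 196 bases before it in SPRR2F, and 4.95% of the 35116 promoters held the motif on either strand. Of the AP-1 subunits given here, JUNB and FOSB were higher with I593T in both letters. JUN and FOSL1 were lower with I593T in A and higher in B. JUN was among the genes high in I593T B alone of the 4 I593T and WT libraries, described below. Its level was 3.37 and 28.9 CPM in I593T A and B, against 4.05 and 5.43 CPM in WT A and B. JUNB had 10.1 and 34.4 CPM in I593T against 7.61 and 12.6 CPM in WT (0.99 ± 0.30, and 0.39 without I593T B), and FOSB had 15.2 and 21.3 CPM against 10.9 and 11.2 CPM (0.71 ± 0.23, and 0.44 without I593T B). DUSP2, an immediate-early phosphatase, had 1.65 and 5.57 CPM against 1.23 and 1.11 CPM (1.39 ± 0.51, and 0.77 without I593T B, 0.72 without WT B and 2.11 without WT A). FOSL1, the most abundant member, had 324 and 655 CPM against 479 and 198 CPM, lower in A and higher in B (0.49 ± 0.51). Of 26 AP-1 and immediate-early genes, 12 were higher and 14 lower, with a median of -0.03.

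Genes for cell junctions and for keratinocyte identity were more often lower, by small amounts. Of 27 junction genes, 19 were lower and 8 higher (median -0.11, -0.17 within A and -0.11 within B), and 7 had both I593T libraries below both WT libraries, against 10.7% of all genes. Besides DSG3, the desmosomal cadherin DSC3 had 134 and 115 CPM in I593T A and B, against 179 and 140.1 CPM in WT (-0.35 ± 0.12, and -0.23 after a correction for GC content). CTNNA1, alpha-catenin, which ties cadherins to actin, had 189.6 and 179 CPM against 225 and 235 CPM (-0.32 ± 0.11). DSP, desmoplakin, had 434 and 432 CPM against 515 and 534 CPM (-0.28 ± 0.12). These members were lower in both letters, while another desmosomal cadherin of the list, DSG2, named after its value was seen, had 298 and 301 CPM against 297 and 304 CPM (-0.01 ± 0.11).

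All 10 keratinocyte markers were lower in I593T, with a median log2 fold change of -0.23 (-0.17 within A, -0.22 within B). Of these, 5 had both libraries below both WT libraries, against 10.7% of all genes. The lists overlap, since DSP is also among the junction genes and TP63 among the basal genes. TP63, the master transcription factor of stratified epithelia, had 296 and 360.2 CPM in I593T A and B, against 376 and 499 CPM in WT A and B (-0.41 ± 0.11). KRT14, the main basal keratin, had 1105 and 1197 CPM against 1246 and 1396 CPM (-0.20 ± 0.16). Without WT B, 6 of the 10 markers were lower and 4 higher, with a median of -0.08. The summed markers of other cells moved with the letters more than with the groups: fibroblast markers, nearly all of it FN1, summed to 418 and 205 CPM in I593T A and B, against 391 and 127 CPM in WT A and B, and endothelial and kidney-line markers, mostly CDH2, to 36.6 and 18.7 CPM against 27.6 and 12.6 CPM. FN1 had a log2 fold change of 0.39 ± 0.16 (0.24 without I593T B and 0.18 without WT B) and CDH2 of 0.51 ± 0.15. The part of these markers in the lower epidermal genes was not tested. Among genes of basal keratinocytes and the hemidesmosome, 14 of 21 were lower, with medians of -0.07 in the fit, -0.23 within A and 0.14 within B. The median was 0.11 without WT A, with 13 higher and 8 lower, and 0.09 without I593T A, with 11 higher and 10 lower. In this list COL7A1, the anchoring-fibril collagen, was higher, with 4.94 and 4.68 CPM against 3.33 and 2.07 CPM (0.85 ± 0.34).

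**Figure D2:**
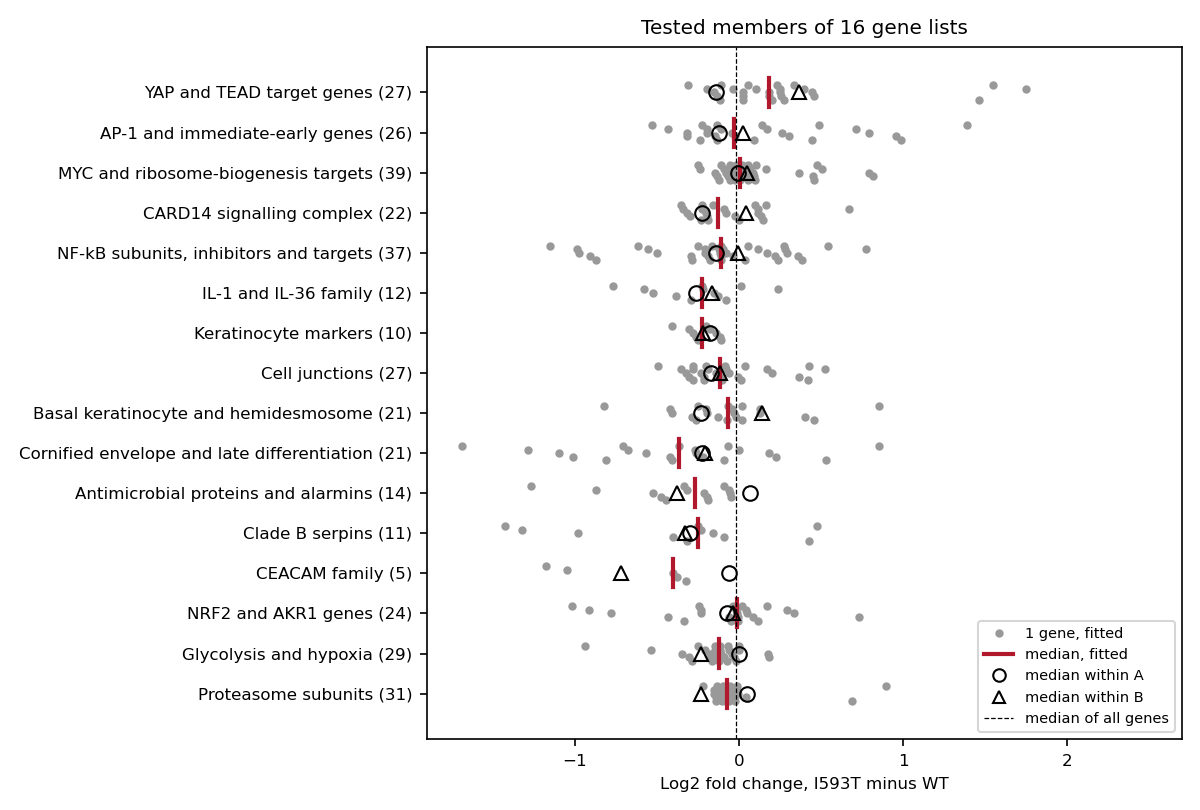
Log2 fold change of I593T over WT (horizontal axis) for the tested members of 16 gene lists, with the number of members in brackets. Grey dots are genes, red bars the list's median from the fit, circles and triangles its median difference within A and within B, and the dashed line the median of all genes at -0.02; the YAP and TEAD list has its circle at -0.14 and its triangle at 0.37, while the keratinocyte markers have them at -0.17 and -0.22.

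In the CARD14 signalling complex, the adaptor BCL10 and the ubiquitin ligase TRAF6 had the smallest p-values, and both were lower. BCL10 had 109.9 and 97.6 CPM in I593T A and B, against 140.0 and 125 CPM in WT A and B (-0.35 ± 0.12). TRAF6 had 36.5 and 32.8 CPM against 43.6 and 42.7 CPM (-0.32 ± 0.12, and -0.20 after a correction for GC content). Both differences were alike in A and in B, and the groups did not overlap. MALT1, the protease, named after its value was seen, had 8.16 and 6.70 CPM against 8.43 and 5.62 CPM (0.10 ± 0.20). TNFAIP3 (A20), the deubiquitinase that NF-kB induces as its own brake, had 255 and 229.7 CPM against 463 and 139 CPM, lower in A and higher in B (-0.16 ± 0.37). Of the 22 members, 15 were lower and 7 higher, with a median of -0.12 (-0.23 within A, 0.04 within B). Without I593T A, 11 were lower and 11 higher.

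NF-kB subunits, inhibitors and targets had a small negative median in A and nearly none in B. Of 37 members tested, 24 were lower and 13 higher, with medians of -0.11 in the fit, -0.14 within A and -0.002 within B, and 4 of the lower members had an unadjusted p under 0.05, against 1.52% of all genes. Besides CSF3, these included CCL20, the chemokine that draws Th17 cells, with 7.99 and 6.90 CPM in I593T against 12.7 and 10.2 CPM in WT (-0.62 ± 0.18), and PLAU, urokinase, with 611 and 365 CPM against 946 and 469 CPM (-0.50 ± 0.12). The fourth, the chemokine CXCL3, named after its value was seen, had 31.5 and 29.7 CPM against 101 and 32.2 CPM, so that WT A alone was high (-0.98 ± 0.36). NFKBIA (IkB-alpha), the inhibitor that NF-kB induces, also named after its value was seen, had 98.6 and 297 CPM against 117 and 78.9 CPM, with I593T B high (0.77 ± 0.45). IL8, whose product is a neutrophil chemokine, had 428 and 138 CPM against 606 and 131 CPM (-0.25 ± 0.23), and its letters differed more than its groups.

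In the IL-1 and IL-36 family, 10 of 12 members were lower (median -0.22), and without WT A there were 6 lower and 6 higher (median -0.07). IL36G, an epidermal cytokine that is high in psoriasis, had 21.1 and 12.1 CPM in I593T A and B, against 38.4 and 19.1 CPM in WT A and B. Within each letter I593T was the lower, and the log2 fold change was -0.77 ± 0.16. IL1RN, the IL-1 receptor antagonist, had 174 and 273 CPM against 221 and 471 CPM (-0.58 ± 0.16, and -0.29 without WT B). IL1B had 249.6 and 200.3 CPM against 435 and 166 CPM, lower in A and higher in B (-0.29 ± 0.26). An agonist and an antagonist of this family were thus both lower. All 14 antimicrobial proteins and alarmins tested had negative fold changes (median -0.26), but the median was 0.07 within A and -0.38 within B, and 0.07 without WT B, with 3 lower and 11 higher. PI3, elafin, had the smallest p of these, with 121 and 38.9 CPM against 135 and 54.1 CPM (-0.32 ± 0.13, -0.13 without WT B and -0.49 without WT A).

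Several genes of differentiated or stressed epithelium differed between the letters by more than between the groups, yet were lower with I593T in both letters. SERPINB13, a protease inhibitor of the epidermis, had 57.7 and 103 CPM in I593T A and B, against 92.5 and 249 CPM in WT A and B (-0.98 ± 0.16). SERPINB3 and SERPINB4, near-identical squamous cell antigens whose reads may have been split, had log2 fold changes of -1.32 ± 0.38 and -1.42 ± 0.54. WT B was by far the highest library for both, at 79.7 and 33.7 CPM; without WT B the values were -0.81 and -0.91, and without I593T B -0.76 and -0.85. Of 11 clade B serpins, 9 were lower and 2 higher. CEACAM6, an adhesion molecule of epithelia, had 19.0 and 50.6 CPM in I593T against 46.5 and 87.7 CPM in WT (-1.05 ± 0.21). CEACAM5 had 2.85 and 14.2 CPM against 4.24 and 44.5 CPM (-1.18 ± 0.26, and -0.72 without I593T B), and all 5 CEACAM genes tested had negative fold changes. The list's median difference was -0.06 within A, with 3 lower and 2 higher, and -0.72 within B, with all lower. DHRS9, a retinol dehydrogenase of the epidermis, had 3.82 and 19.1 CPM against 7.93 and 35.3 CPM (-0.96 ± 0.19).

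AKR1C2, the close copy of AKR1C1, had 37.4 and 24.1 CPM in I593T A and B, against 48.6 and 65.8 CPM in WT A and B (-0.91 ± 0.27, -0.56 without I593T B and -0.52 without WT B), and AKR1C3, named after its value was seen, 6.03 and 4.04 CPM against 6.70 and 10.4 CPM (-0.78 ± 0.36). The 3 AKR1C genes lay lower in both I593T libraries, though reads of AKR1C1 and AKR1C2 may have been split between them. The list of NRF2 targets and AKR1 genes, which holds these 3 genes, had 15 of 24 lower and a median of -0.01; NRF2 is the regulator that induces AKR1C genes under oxidative stress. FTH1, ferritin heavy chain, its most abundant member, had 11134 and 11801 CPM against 12821 and 16197 CPM (-0.33 ± 0.15).

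MYC and ribosome-biogenesis targets split evenly, with 20 of 39 higher, 19 lower and a median of 0.01. The 4 members with an unadjusted p under 0.05 were all higher, against 1.9% of all genes. Without I593T B the list had 13 higher and 26 lower, with a median of -0.04. RRS1, a ribosome assembly factor, had 38.8 and 80.4 CPM in I593T A and B, against 33.3 and 31.9 CPM in WT A and B (0.79 ± 0.26, 0.38 without I593T B and 0.48 without WT B). RRP9, a component of the nucleolar U3 particle, had 21.5 and 51.6 CPM against 18.6 and 20.0 CPM (0.82 ± 0.29, 0.31 without I593T B, 0.54 without WT B and 1.27 without I593T A), and FBL, fibrillarin, had 53.5 and 99.6 CPM against 48.1 and 58.3 CPM (0.48 ± 0.18, 0.20 without I593T B and 0.74 without I593T A). The fourth was BOP1 (0.45 ± 0.18), named after its value was seen. In each of these the B library of I593T was the highest of the 4. The most abundant members, the chaperone HSPD1 and the enzyme LDHA, had log2 fold changes of 0.06 ± 0.11 and -0.14 ± 0.19. Among MYC's partners, MAX had 232 and 230.4 CPM against 145 and 258 CPM, where WT A alone was low (0.22 ± 0.24).

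Some large groups of co-expressed genes had opposite signs in the letters. Genes of the nuclear-encoded respiratory chain had a median difference of 0.21 within A and -0.27 within B (33 tested), cytosolic ribosomal proteins 0.16 and -0.16 (74 tested), interferon-stimulated genes 0.24 and -0.24 (45 tested), and proliferation genes 0.16 and -0.19 (35 tested). Their fitted medians were between -0.03 and -0.001, and without WT B they were 0.30, 0.30, 0.34 and 0.20 in the same order. Leaving out WT A instead gave medians of the other sign, -0.33, -0.25, -0.24 and -0.22. IFIT3, an interferon-induced protein, shows the pattern: it had 1751 and 2303 CPM in I593T A and B, against 1392 and 3197 CPM in WT A and B, higher with I593T in A and lower in B. WT A was the lowest and WT B the highest library. Glycolysis genes (25 of 29 lower, median -0.12) and proteasome subunits (28 of 31 lower, median -0.07) had their lower values in B, with medians of -0.23 in each, against 0.004 and 0.05 in A. Without WT B both lists were mostly higher, with 19 of 29 and 26 of 31 members and medians of 0.09 and 0.15. Their medians without WT A were -0.30 and -0.27.

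A few single genes of the stress lists had unadjusted p-values under 0.05. BAX, the pro-apoptotic p53 target, had 6.11 and 21.4 CPM in I593T A and B, against 2.19 and 11.2 CPM in WT A and B (1.12 ± 0.33, 0.72 without WT A and 1.77 without WT B). CDKN1A, the p53-induced inhibitor p21, had 262 and 272 CPM against 379 and 332 CPM (-0.41 ± 0.13), the opposite direction, and the 22 p53 targets had 9 members higher and 13 lower. CRELD2, an endoplasmic-reticulum stress gene, had 19.2 and 63.4 CPM against 18.4 and 12.9 CPM (1.23 ± 0.50, and 0.34 without I593T B, 1.99 without I593T A, 1.92 without WT A and 0.60 without WT B), with I593T B alone high. WARS, a tRNA synthetase that interferon and ATF4 induce, had 363 and 340.0 CPM against 429 and 576 CPM (-0.51 ± 0.18, -0.78 without WT A and -0.21 without WT B). PSMD3, a proteasome subunit, had 28.3 and 68.3 CPM against 22.2 and 27.6 CPM (0.89 ± 0.32, 0.25 without I593T B and 1.41 without I593T A).

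A separate set of 30 genes was high in I593T B alone. The rule took genes with at least 2 CPM in I593T B and a level, after adding 0.5 CPM, at least 4 times the highest of I593T A, WT A and WT B, so the values are given as a description with no test. The same rule gave 2 genes for I593T A, 2 for WT A and 6 for WT B. Of the 30 genes, 28 had counts enough to be tested, and all were left out of the named genes and list medians above. They held 0.452% of the counts of I593T B, against 0.036% in WT B.

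The members of highest level in I593T B were SENP3, PTP4A2 and CTLA4. SENP3, a SUMO protease of the nucleolus, had 1.41 CPM in I593T A and 1188 CPM in I593T B, against 1.32 and 0.961 CPM in WT A and B. PTP4A2, a protein tyrosine phosphatase, had 58.8 and 903 CPM against 89.0 and 69.9 CPM. CTLA4, an inhibitory receptor of T cells, had 0 and 733 CPM (14874 counts), against 0 in both WT libraries. In R820W and N737H libraries SENP3 had at most 1.96 CPM, PTP4A2 at most 75.6 CPM and CTLA4 at most 0.0545 CPM. The T-cell genes CD28 and ICOS did not accompany CTLA4: CD28 was at 0.0402 and 0.0986 CPM in I593T A and B, against 0.0911 and 0.0481 CPM in WT, and ICOS was at 0 in all 8 libraries. The read-through model SENP3-EIF4A1 had 3355 and 3246 CPM against 3287 and 3708 CPM, so the high count was in the SENP3 row only; how reads shared by these overlapping models were counted is not given in the sources used here. The paralog PTP4A1 had 384 and 317 CPM against 446 and 373 CPM.

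The other 27 genes are described here over the B libraries of the series. N737H B was the second highest of the 8 libraries for 27 of 27, and R820W B was above WT B for 24, while I593T A was above WT A for 8. For SENP3 and CTLA4 the second highest was R820W B, and for PTP4A2 it was WT A. The rule held I593T A, WT A and WT B low, so these ranks and the ratios to WT B below are partly fixed by the choice. The matching shares over all genes are not given here. Over all 30 genes the median ratio of I593T B to the highest of the other 3 libraries was 4.49, that of N737H B to WT B 2.64 and that of R820W B to WT B 1.64. IGFBP6, a secreted binding protein of IGF2, had 46.4 and 431 CPM in I593T A and B, 97.9 CPM in R820W B and 158 CPM in N737H B, against 45.2 and 81.0 CPM in WT A and B. CYC1, a cytochrome subunit of the respiratory chain, had 85.8 and 389 CPM in I593T and 223 CPM in N737H B, against 69.8 and 85.9 CPM in WT. SLBP, which binds histone mRNA stem-loops, INSIG1, an inhibitor of SREBP processing, and MRPL41, of the mitochondrial ribosome, had 130.2, 124 and 108 CPM in I593T B, against 19.5, 25.3 and 19.7 CPM in WT B. By ratio, DOHH, a hydroxylase that makes hypusine in a translation factor, followed CTLA4 and SENP3, at 17.8, with 0.281 and 26.2 CPM in I593T and 5.65 CPM in N737H B, against 1.00 and 0.288 CPM in WT; PTP4A2 was at 10.1. Close inside the threshold lay KLC2 and FASN, with ratios of 4.06 and 4.09, and just outside it ZDHHC24, TP53I13 and PLEKHF1, with 3.99, 3.97 and 3.95.

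**Figure D3:**
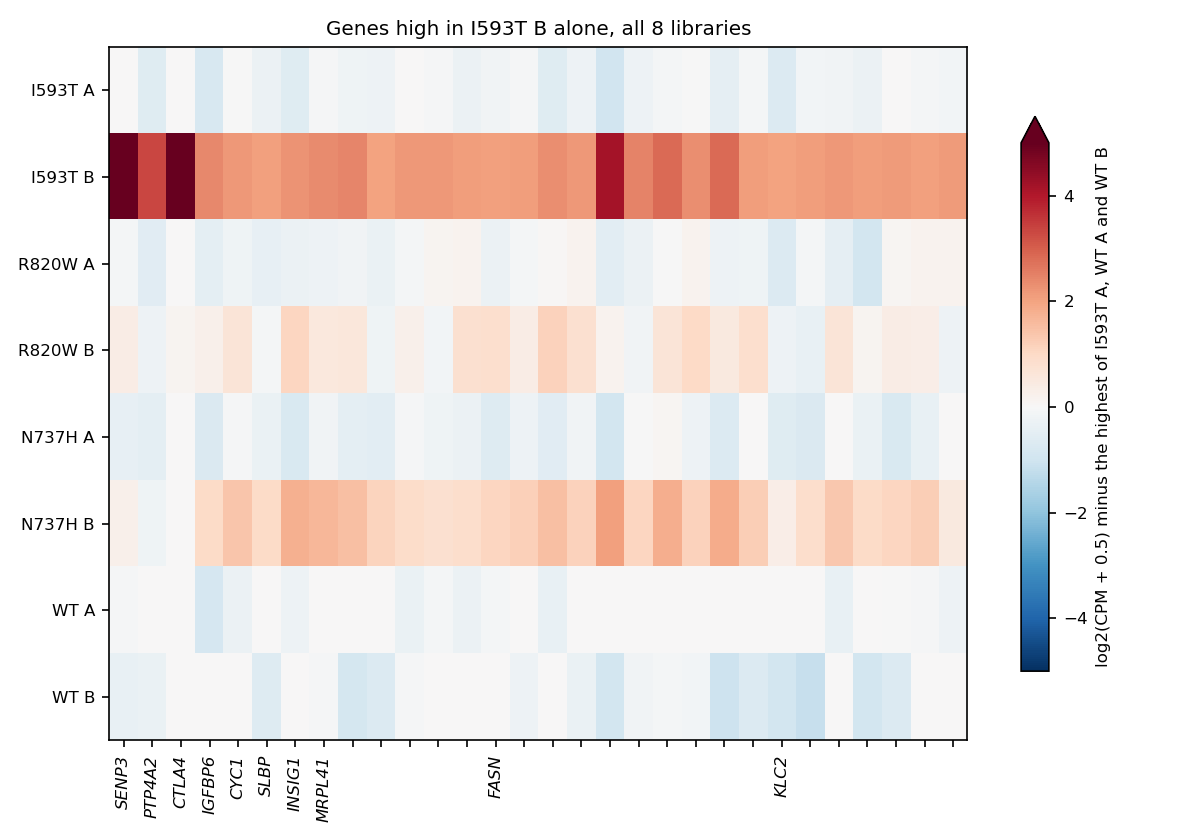
Levels of the 30 genes high in I593T B alone (columns) in all 8 libraries (rows), as log2(CPM + 0.5) minus the highest of I593T A, WT A and WT B. Columns are in order of the level in I593T B, and colours are cut at 5. Genes described in the text are labelled, except DOHH and JUN. The I593T B row is red by construction, and the N737H B row is second in colour for the 27 genes other than SENP3, PTP4A2 and CTLA4.

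These 30 genes were short and GC-rich. Their transcripts (the longest per gene in GENCODE 29) had a median GC content of 60.7%, against 48.2% over the 12736 tested genes with a value, and 26 of the 30 lay above that median. Their median length was 2011.5 bases against 3337. SENP3 (57.0%), PTP4A2 (42.3%) and CTLA4 (42.3%) were less GC-rich than the median of the set. GC content also ran with the difference between I593T and WT over all genes. In 5 equal groups of genes by rising GC content (30.2 to 40.5% in the lowest and 56.5 to 71.9% in the highest), the median difference within A went through -0.13, -0.07, -0.02, 0.04 and 0.08 on the log2(CPM + 1) scale, and within B through -0.09, -0.10, -0.10, -0.06 and 0.06. Across 9209 genes, which share their libraries and are not independent, Spearman's rho of the difference with GC content came to 0.32 in A and 0.15 in B; its rho with length was -0.33 in A and 0.16 in B. Genes with an unadjusted p under 0.05 had a median GC content of 58.4% where higher and 43.7% where lower. For the 12 named higher and 12 named lower genes these medians were 52.9% and 48.8%. With an offset for GC content in the fit, 346 genes were higher and 157 lower at an unadjusted p under 0.05, none passed the adjustment, the YAP and TEAD list had a median of 0.26, the cornified list -0.27 and the keratinocyte markers -0.20. Proteasome subunits then had 15 lower and 16 higher, against 28 and 3 without the offset. The median of all genes tested moved as well, to 0.04 over 12736 genes with the offset, from -0.02 without it. The part of GC content in the differences was otherwise not tested.

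**Figure D4:**
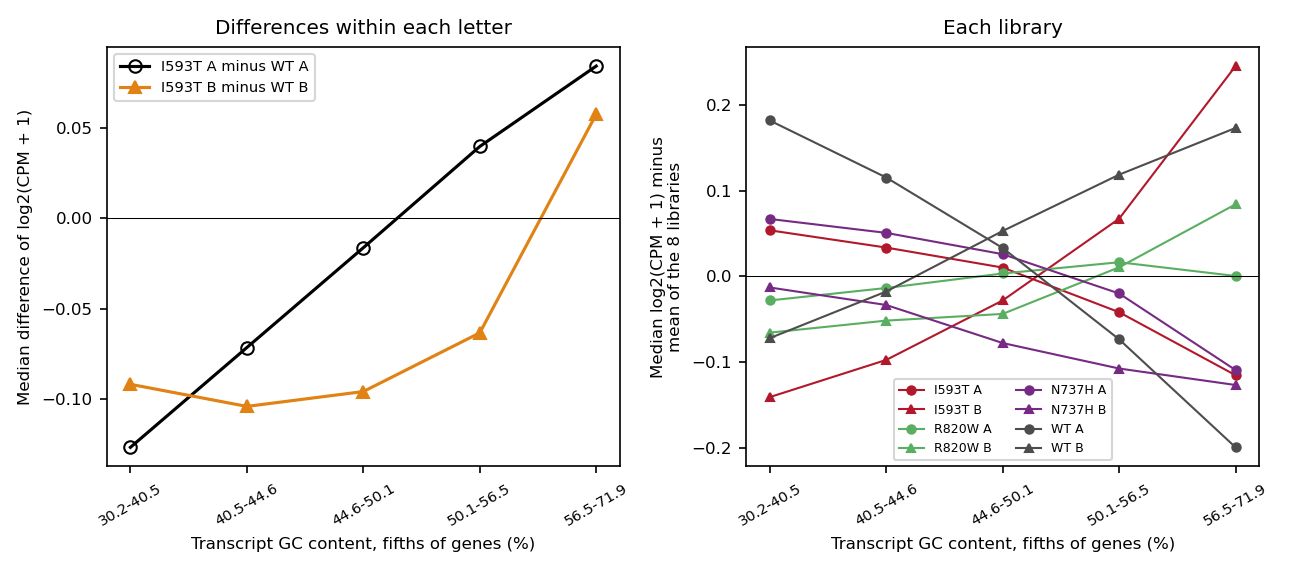
Median difference of log2(CPM + 1) between I593T and WT within A and within B (left), and each library's median deviation from the mean of the 8 libraries (right), over 5 groups of genes by GC content of the transcript. The left lines end at 0.08 in A and 0.06 in B in the highest group. On the right I593T B, WT B and R820W B climb with GC content, and WT A, I593T A and both N737H libraries fall.

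**Figure D5:**
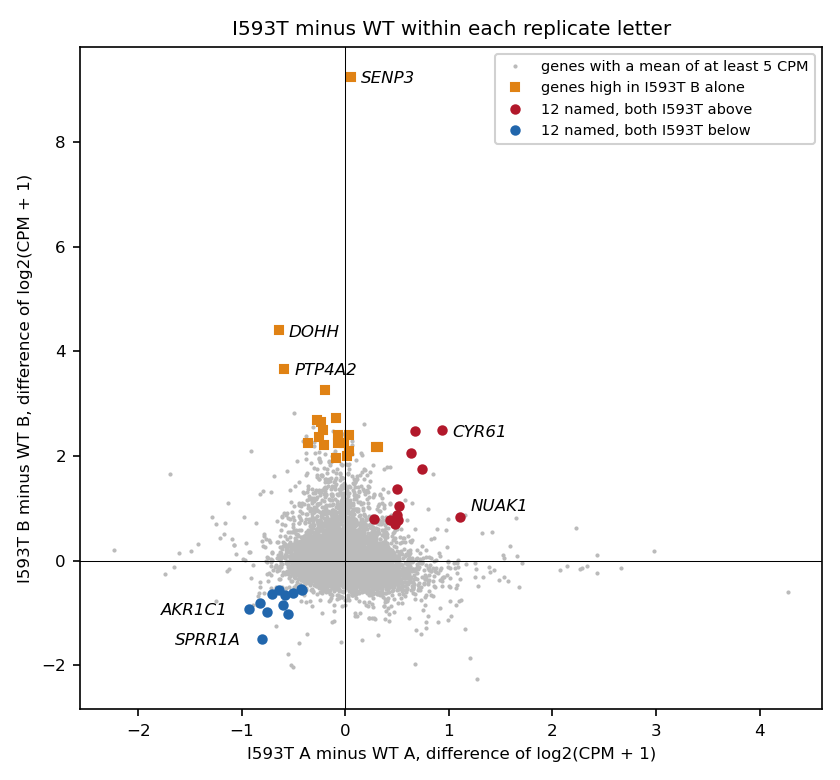
Difference of log2(CPM + 1) between I593T and WT within A (horizontal) and within B (vertical), 1 grey point per gene with a mean of at least 5 CPM. Orange squares are genes high in I593T B alone that were tested and had a mean of at least 5 CPM. They sit near 0 in A and from about 2 upward in B. Red and blue points are the 24 named genes, in the corners where both letters share a sign, which they were chosen for.

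Set against the other variants, I593T gave no called gene either. In the contrast of I593T with the mean of R820W and N737H, 0 of 14178 genes passed (0%, smallest adjusted p = 1 in edgeR), and 260 (1.83%) had an unadjusted p under 0.05. The 2 contrasts share the I593T libraries, so the named genes' values are given as a description.

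The 12 named lower genes were also looked at in N737H and R820W. Those libraries entered the fit whose p-values picked the genes, so these values too are a description and support nothing about the genes as a group. Both N737H libraries lay below both R820W libraries for 11 of the 12, where the share of all genes tested was 15.5%, and the mean of N737H was lower for 12 of 12. CARD14 RNA lay the same way, at 444 and 1013 CPM in N737H A and B, against 1190 and 1414 CPM in R820W A and B. The part of the CARD14 level in these differences was not tested. KRT15 had 55.4 and 61.2 CPM in N737H A and B, against 126 and 131 CPM in R820W A and B. DSG3 had 231 and 249.8 CPM in N737H against 319.9 and 348 CPM in R820W. CSF3 had 8.82 and 7.88 CPM against 18.5 and 19.0 CPM, and SPRR1A 2.37 and 4.41 CPM against 7.05 and 11.2 CPM. For all 4 genes both N737H libraries lay below both WT libraries given above. AKR1C1 had 9.69 and 7.19 CPM against 13.6 and 10.8 CPM, with R820W between I593T and WT. FYB was the exception, with 139.9 and 173 CPM in N737H and 149 and 206 CPM in R820W, where the libraries overlapped.

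For the 12 named higher genes, both N737H libraries lay above both R820W libraries for 2, where the share of all genes tested was 13.6%, and below for 2. The mean of N737H was higher for 9 and lower for 3, against 7614 and 6561 of all genes tested. CYR61 had 86.0 and 151 CPM in N737H A and B and 107 and 93.3 CPM in R820W A and B, and the log2 difference of I593T from the mean of both variants was 0.70 ± 0.31. For GADD45GIP1 that difference was 1.16 ± 0.26, with 3.63 and 7.73 CPM in N737H and 2.80 and 4.20 CPM in R820W. NUAK1 had 10.5 and 6.15 CPM in N737H, as high as in I593T, and 6.64 and 3.92 CPM in R820W, with a difference of 0.33 ± 0.18.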

How the data were processed

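Per the labels' protocols, the RNA kit was mirVana and the library kit an NEBNext kit for low input. The authors deposited raw counts of reads per gene for the 8 libraries. The hg19 build, FastQC, MACS2 and DESeq2 are named in the submitters' processing notes. Which aligner, counter and annotation were used, and whether strand was, is not given in the sources used here. Library totals ran from 17892608 to 24629860 counts. Of the gene names, 27 look like dates and 2 occur more than once.

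Counts were normalised by TMM and fitted with edgeR 4.0.16 (limma 3.58.1, R 4.3.3) on all 8 libraries, with group and letter, leaving 3 residual degrees of freedom. All tests are two-sided, and adjusted p-values are Benjamini-Hochberg values over the genes tested. CPM are counts over TMM library sizes. The fit was tested on simulated data, drawn with the same spread for every gene and the same letter effects in all groups. Letter effects that differ between groups were thus not covered. Alternatives were other filters, normalizations and samples in the fit, DESeq2 1.42.0, limma voom, no block, each library left out, and, chosen after seeing the data, an offset for GC content (GENCODE 29).

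The named genes are CARD14, MYC, the 12 genes of smallest p in each direction (at a mean of 5 CPM or more, with groups that do not overlap), and in each list up to 3 members with an unadjusted p under 0.05 and the 2 of highest level. The genes, the lists and the rule for genes high in 1 library were chosen with earlier results of these data known. Other genes are marked as named after their values were seen. A few genes are not reported here. All 826 entries of 35 lists were found in the table, 6 by an older or other symbol.

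The differences between A and B correlated between groups at 0.43 to 0.61 in 5 of 6 pairs of groups and at 0.09 between N737H and WT. Pairing rests on reading the letters as experiments, which the labels do not state. Every pair of libraries differed by more than sampling noise (smallest chi-square per gene 6.47). The largest value, 102, was between WT A and WT B, and that between I593T A and I593T B was 55.8. Between I593T and WT it was 28.4 within A and 40.1 within B. The labels do not say that A and B are separate cultures, so the p-values cover only the spread between the libraries at hand.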

Additional observations from a re-analysis of the deposited data

How the results depend on the processing

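In the count of genes past an adjusted p of 0.05 between I593T and WT, the value of 0 in each direction became 1 higher with no filter on low counts (CTLA4), 1 higher and 1 lower in DESeq2 with the replicate block, and 2 higher in DESeq2 with no block (CYR61 and SENP3). Leaving out each library gave 0 to 19 higher and 0 to 2 lower, the most without WT B; the contrast with R820W and N737H gave 0 to 2, and 1 with no filter, 2 in DESeq2 with the replicate block and 1 in DESeq2 with no block. Counts at an unadjusted p under 0.05, 270 higher and 216 lower with the block, were 144 and 58 with no replicate block, 144 and 86 in the 4 libraries with the block and 69 and 23 without it. The lower count was 137 with 10 or more counts in all 4 libraries, 133 in DESeq2 with the block and 48 in DESeq2 with no block. With each library left out, the counts ran from 49 to 999 higher and from 71 to 760 lower, the fewest without I593T B and the most without WT A. Normalization by RLE, removal of CARD14 and the genes high in I593T B, edgeR's own filter, limma voom and robust estimation kept each count within 1.5 times. The 30 genes high in I593T B alone were 86 at a ratio of 3 and 4 at a ratio of 8. The cause of these shifts was not tested. Where 1 library is left out, the lone library of its group is assumed to vary like the other groups. With 2 libraries per group, single genes were measured with a median SE of 0.22 on the log2 scale, and of the 14178 genes, 104 had under 10 counts in both WT libraries and 38 in both I593T libraries.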

Other observations

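Of the lists not described above, the values were as follows. Heat shock genes had 12 of 19 members higher in I593T and a median log2 fold change of 0.06. Genes of sterol synthesis had 12 of 25 higher (median -0.01), and 2 further members, INSIG1 among them, were high in I593T B alone. Targets of ATF4, the transcription factor of the integrated stress response, had 12 of 28 higher (median -0.04), and chaperones and genes of the unfolded protein response 8 of 21 (median -0.05). EGF receptor ligands and receptors had a median difference of -0.35 within A and 0.23 within B, and without WT A 9 of 11 were higher. Without I593T B or without WT A the heat shock list had 9 higher and 10 lower. The sterol list had 18 of 25 higher without WT B and 18 of 25 lower without WT A. The unfolded protein list had 11 of 21 higher without WT B, and the ATF4 list 18 of 28 higher without I593T A. HBEGF, a ligand that wounded keratinocytes release, had 102 and 80.8 CPM in I593T A and B, against 200.4 and 79.9 CPM in WT A and B, where WT A alone was high (-0.53 ± 0.26). SUMO proteases other than SENP3 had 4 of 6 members lower, and SENP2 had 40.5 and 32.2 CPM in I593T against 52.1 and 41.1 CPM in WT (-0.36 ± 0.13). The epidermal lipid barrier list had 11 of 16 lower (median -0.10), and stress and simple keratins 8 of 11 lower (median -0.11); without WT B the keratins had 1 lower and 10 higher (median 0.08), and without I593T A 5 lower and 6 higher. KRT7, a simple keratin, was higher, with 522 and 949.9 CPM against 471 and 544 CPM (0.49 ± 0.19, 0.17 without I593T B and 0.80 without I593T A).

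Without WT B, edgeR called 19 genes higher and 2 lower in I593T, named here after their values were seen. Among the higher genes were EEF2, a translation elongation factor (log2 fold change 1.70 ± 0.18, adjusted p = 0.0151) and LMNB1, a nuclear lamin (2.37 ± 0.16, adjusted p = 0.0018). With all libraries the log2 fold change of EEF2 was 0.65 ± 0.43, with a difference of 1.53 within A and 0.06 within B on the log2(CPM + 1) scale, and that of LMNB1 was 1.30 ± 0.43, with 2.23 within A and 0.63 within B. No other setting called these 2 genes, and with all libraries their edgeR adjusted p was 1.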
